A study of Mus musculus with 3 samples.

Results

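The genes described here encode the kinases AKT and PDK1, the TSC complex, the core of the mTOR complexes and the S6 kinase. The 9 members, Akt1, Akt2, Pdpk1, Tsc1, Tsc2, Mtor, Rptor, Rictor and Rps6kb1, were chosen by name, and each was found among the gene names of a mouse DNA array, out of 21138 names in all. Together they were read by 80 probes, and each gene was set against every other probe within 500 kb on each side, here called its flanking probes. Gene and flanking probes together make up its window.

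Genomic DNA from 3 neurosphere lines, free-floating cultures of tumour cells, was hybridised against mouse liver DNA on 3 arrays. The lines came from mouse tumours resistant to an inhibitor of CSF1R, the receptor on which microglia and other macrophages depend, and were taken at passages 2 to 3. They form 1 group with no untreated or sensitive tumour line beside it. Line 1 has an animal number of its own, and lines 2 and 3 share another, as well as a liver label. The genotype of the mice and the compound used as inhibitor are not given in the sources used here. Since DNA was measured, the arrays hold no expression markers by which the cell type could be checked. Line DNA was always labelled with Cy5 and liver DNA with Cy3, so a dye effect of a probe and a difference between line and liver cannot be told apart. The p-values reflect the spread among these 3 lines and nothing wider.

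AKT is a kinase that PI3 kinase recruits to the cell membrane, where PDK1 activates it by phosphorylation. AKT in turn phosphorylates TSC2, which with TSC1 holds back the small GTPase RHEB, an activator of the kinase mTOR. With raptor, the product of Rptor, mTOR drives protein synthesis through targets such as the S6 kinase, the product of Rps6kb1. With rictor it phosphorylates AKT. The series title names IGF1R and PI3 kinase signalling in the resistance of gliomas, and these genes lie downstream of PI3 kinase. The comparison asks whether their copy number in the lines differed from that in liver.

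All values below are log2 of line over liver DNA signal, centred on the median of the autosomal probes of each array. If all cells of a line held 3 copies in place of 2, the value would be 0.585, and with 1 copy in place of 2 it would be -1. A change carried by part of the cells gives less, and the number of copies and the share of cells cannot be told apart. The SD of a single probe, estimated from the interquartile range of the differences between neighbouring probes, was 0.384 in the array of line 1. It was 0.232 and 0.238 for lines 2 and 3, so line 1 is the least precise. Liver DNA was well above background at 96.4%, 98.6% and 99.1% of probes in lines 1, 2 and 3, and saturation was not seen. Having only 3 arrays limits the precision.

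The probes of Rps6kb1 are shown because it was the member that passed the test described further on, and those of Akt1 and Mtor because single probes decide what can be said of these genes. Each is printed 5′ to 3′ as in the deposited scanner file, all in lower case since no part of it stands out. Positions are those of the file (mm9), and the genome strand of a probe is not stated there. No annotation of exons and introns for mm9 was used here.
Rps6kb1 probe 1, chr11:86320945-86321004: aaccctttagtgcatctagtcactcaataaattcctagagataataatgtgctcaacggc
Rps6kb1 probe 2, chr11:86331034-86331093: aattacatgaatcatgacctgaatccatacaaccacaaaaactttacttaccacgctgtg
Rps6kb1 probe 3, chr11:86342858-86342917: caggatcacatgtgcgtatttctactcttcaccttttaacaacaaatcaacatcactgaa
Rps6kb1 probe 4, chr11:86354957-86355016: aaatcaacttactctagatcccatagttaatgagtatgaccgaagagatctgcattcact
Mtor probe 4, chr4:147857257-147857316: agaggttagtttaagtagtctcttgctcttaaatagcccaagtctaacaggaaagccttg
Mtor probe 5, chr4:147864512-147864571: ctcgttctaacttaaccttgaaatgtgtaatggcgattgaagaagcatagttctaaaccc
Akt1 probe 1, chr12:113904354-113904411: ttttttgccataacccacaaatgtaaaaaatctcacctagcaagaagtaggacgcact

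No member lay in a window that reached the size of a gain or loss in the 3 lines. Over the 27 window means, 9 genes in each of 3 lines, values ran from -0.12 for Akt1 in line 1 to 0.15 for Rptor in line 2. None was at or past 0.2 in either direction, and over all 9462 genes with at least 3 probes 0.687% had such a window in some line. The 95% intervals of the window means, which treat probes as independent and cover probe error within an array only, reached no higher than 0.22 and no lower than -0.21. Both bounds came from line 1, for Mtor and Akt1, and both lie far from 0.585 and from -1. They bear on changes that span a window. A change of the gene alone would move its window little, since Rps6kb1 holds 4 of 89 probes and Akt1 1 of 75. The windows held 75 to 123 probes each, and those of Pdpk1 and Tsc2, which lie 469 kb apart on chromosome 17, share 52 probes, 49.5% of the first and 49.1% of the second. Those windows are therefore not separate readings.

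**Figure D1:**
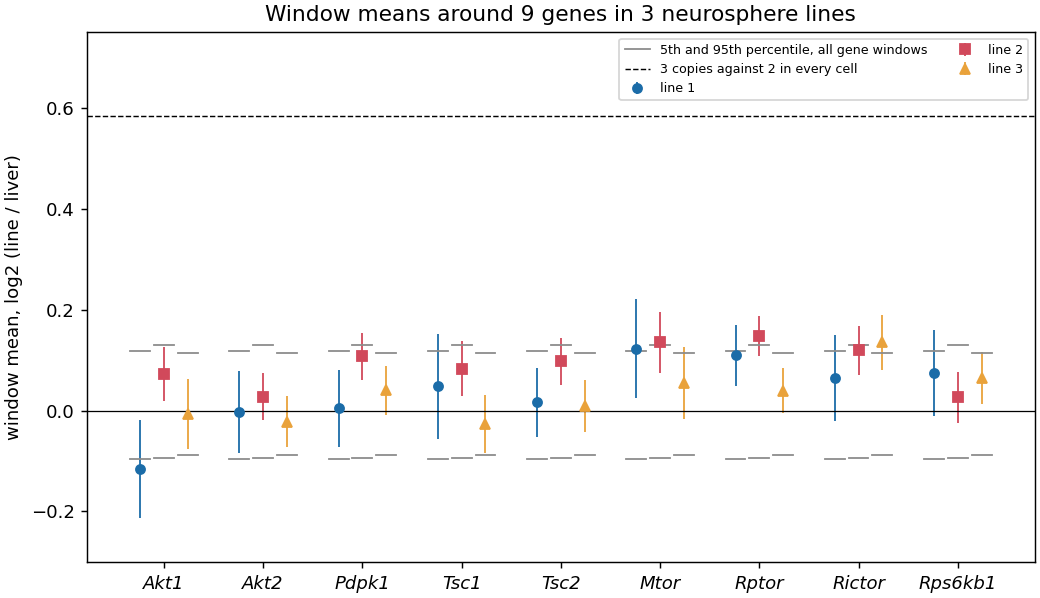
Window means of log2 line over liver (vertical axis) for the 9 genes (horizontal axis) in lines 1, 2 and 3, with 95% intervals over probes as bars. Grey ticks mark the 5th and 95th percentiles of the windows of all genes in that line, and the dashed line at 0.585 is a gain from 2 to 3 copies in every cell: all 27 intervals end below it.

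Averaged over lines, the mTOR complex genes had the highest windows among the members, an order that did not hold in each line, since Rps6kb1 exceeded Rictor in line 1 and both Mtor and Rptor in line 3. Over the 3 lines Rictor windows stood at 0.11 ± 0.037, Mtor windows at 0.10 ± 0.043 and Rptor windows at 0.099 ± 0.055 (SD, n = 3). Rps6kb1, Pdpk1, Tsc2 and Tsc1 followed between 0.055 and 0.035, then Akt2 at 0.00087 ± 0.025 and Akt1 at -0.016 ± 0.095 (SD, n = 3). No neighbours in this order differed by more than the larger of their SDs over lines, with the widest gap, 0.044, between Rptor and Rps6kb1. Of the 9 windows, 6 were above 0 in all 3 lines and none was below 0 in all, beside 44.8% of all genes above 0 in all and 62.5% with 1 sign in all. The members' own means had 1 sign in all lines for 4 of 8, beside 60.3% of all genes. Line 2 was above 0 in 9 of 9 windows, with a median of 0.098, against a median of 0.033 over all genes. In line 1 the windows of Mtor and Akt1 lay outside the 5th to 95th percentile of all genes, in line 2 those of Mtor and Rptor, and in line 3 that of Rictor. These percentiles were -0.096 and 0.12 in line 1, -0.093 and 0.13 in line 2 and -0.089 and 0.11 in line 3.

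Shorter stretches inside the windows were read as running means of 5 neighbouring probes. In line 1, 12 of the 813 stretches in these windows were at or past 0.5 in either direction, or 1.48%, beside 0.828% over all autosomes. In lines 2 and 3 none was, beside 0.0558% and 0.185% over all autosomes. The highest stretch, 0.65 in line 1, was centred 37.4 kb below the middle of Mtor. It was made up of Mtor probes 1 to 4 and the flanking probe beside them. Probes 1 and 4 were not well above background for liver in line 1. The lowest stretch, -0.69 in line 1, was centred 64.2 kb below the single Akt1 probe. The lowest stretches in lines 2 and 3, -0.30 and -0.46, were both 531 kb above the middle of Mtor, at the edge of its window. In line 1 the lowest stretch there was -0.34, at the same place.

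Of the 8 members with at least 3 probes, only Rps6kb1 differed from liver in limma's test over the mean of a gene's own probes, and it was below 0. Beside that count of 1, 24.1% of all 9462 genes passed in either direction, 14.2% above 0 and 9.96% below 0. A count of 1 of 8 is under the share in either direction and near the share below 0. At an unadjusted p under 0.05 the members counted 2 of 8, and all genes 39.9%. The median of the 8 member means was -0.00061, and that of all genes 0.011. When each gene was set against its own flanking probes, Rps6kb1 passed below 0 again and the other 7 did not pass, beside 23.9% of all genes in either direction, 10.1% above 0 and 13.8% below 0. At an unadjusted p under 0.05 this count was 2 of 8 too, beside 40.1% of all genes. The median difference was -0.079 over the 8 members and -0.0089 over all genes.

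Rps6kb1 encodes the S6 kinase, which phosphorylates a ribosomal protein and other parts of the translation machinery when mTOR is active. It lies on chromosome 11, where its 4 probes run from 86320945 to 86355016. Their means were -0.23, -0.11 and -0.12 in lines 1, 2 and 3, and its flanking probes stood at 0.089, 0.033 and 0.073. The gene was thus below 0 and below its surroundings in each line, and line 1 was the lowest. The mean was -0.15 ± 0.067 (SD, n = 3; limma adjusted p = 0.0393, 95% interval -0.25 to -0.051). That interval covers the spread over lines, not over the 4 probes, which were the same on each array. Over the probes, the 95% intervals were -0.60 to 0.15, -0.33 to 0.11 and -0.31 to 0.080 in lines 1, 2 and 3. Each of these included 0. The difference from the flanking probes was -0.32, -0.14 and -0.19, on average -0.22 ± 0.092 (SD, n = 3; limma adjusted p = 0.0210, 95% interval -0.32 to -0.11).

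The low values of Rps6kb1 came from probes 1 and 2. Probe 2 read -0.45, -0.23 and -0.29 in lines 1, 2 and 3, and probe 1 read -0.41, -0.20 and -0.013. Probe 3 read -0.0039, -0.055 and -0.063, and probe 4 read -0.047, 0.066 and -0.096. Probe 4, farthest from the low pair, was near 0 in each line, and probe 1 was near 0 in line 3 alone. The 10 flanking probes nearest to probe 2 averaged 0.16, 0.084 and 0.11. Rnft1, the nearest gene name below it, averaged -0.19, -0.053 and 0.036 over 2 probes, and the single probe of Tubd1 above it, which encodes delta tubulin, read -0.24, -0.16 and -0.21. Of the 7 other genes tested in the window, 1 passed above 0 and 0 below, beside 14.2% and 9.96% of all genes. Without line 1, 2 or 3 the mean of Rps6kb1 was -0.11, -0.17 and -0.17, and its call was lost each time (limma adjusted p = 0.0506, 0.114 and 0.0942). With lines 2 and 3, which share an animal number, averaged as 1 sample, the mean was -0.17 and did not pass (limma adjusted p = 0.107), while the difference from the flanking probes was -0.24 and passed (0.0111). With any 1 line left out, the call on this difference was kept (0.0015 to 0.0360).

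**Figure D2:**
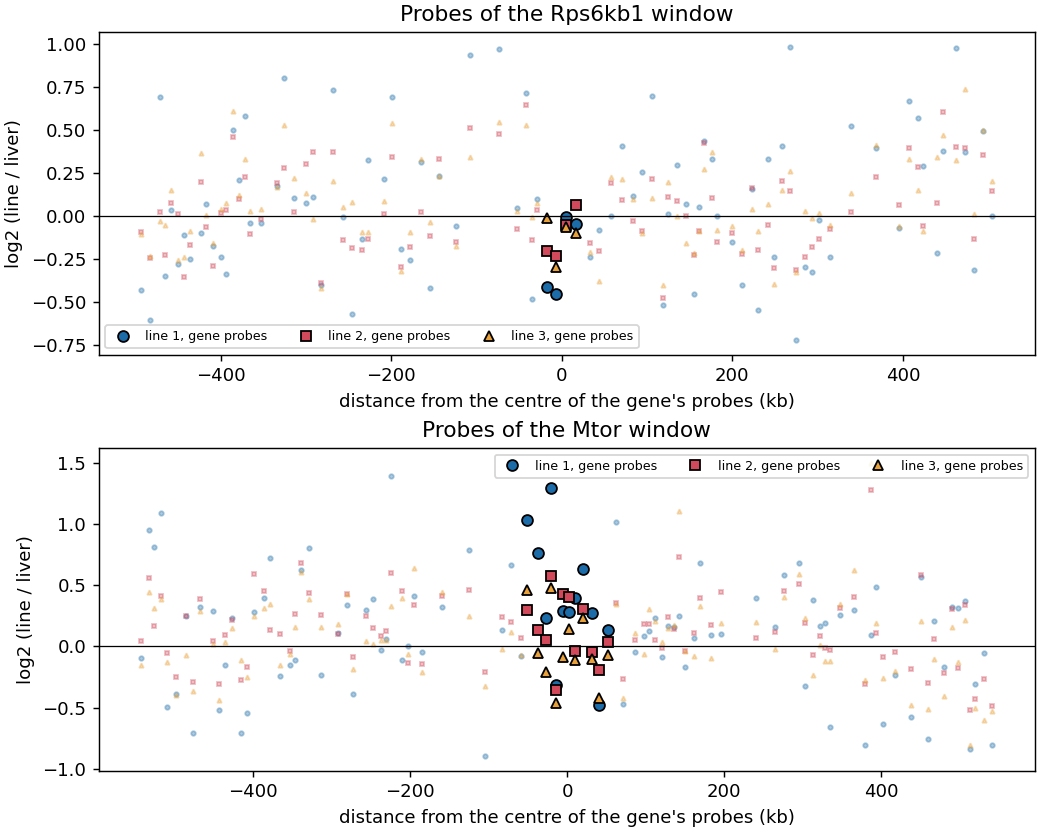
Log2 line over liver (vertical axis) of each probe against its distance in kb from the middle of the gene's probes (horizontal axis), for the windows of Rps6kb1 and Mtor. Large outlined symbols are the gene's own probes in lines 1, 2 and 3 and small pale ones the flanking probes: the Rps6kb1 probes lie between -0.45 and 0.066, and the Mtor probes spread from -0.48 to 1.29.

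Across the array, the log ratio moved with the brightness of the probes. With all autosomal probes ranked by brightness over both channels and 3 arrays and split into 4 equal bins, the log ratio had a median of 0.19 in the dimmest bin, then 0.068, -0.042 and, in the brightest, -0.20. The 4 Rps6kb1 probes lay at the 57.1st to 88.9th percentile of brightness, 2 of them in each of the brighter bins, while Mtor had 7 of its 12 probes in the dimmest. Within Rps6kb1 the values did not follow the order of brightness. Its probes at percentiles 57.1, 73.7, 75.6 and 88.9 averaged -0.21, -0.026, -0.040 and -0.33 over lines. After loess, which removes a trend of the ratio with brightness within each array, Rps6kb1 averaged -0.050 (limma adjusted p = 0.401) and its difference from the flanking probes was -0.11 (limma adjusted p = 0.0844). In the authors' deposited value table these were -0.032 and -0.089 (limma adjusted p = 0.538 and 0.138), and with normexp background correction 0.025 and -0.034 (0.717 and 0.588). The normexp setting started from raw spot signals, so it also left out the detrending and dye normalisation of the processed ones. Over gene means 21.9% of all genes passed with loess, 22.5% in the value table and 23.7% with normexp. Neither call was kept under these 3 settings, and with normexp the mean turned above 0.

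Of the 80 member probes, 9, or 11.25%, were not well above background for liver DNA on at least 1 array. All 9 had a mean above 0, from 0.16 to 0.78. Over the autosomes 3.45% of probes were dim in either channel on at least 1 array. Of the dim autosomal probes 90.0% had a mean above 0, with a median of 0.35. Of these 5564 probes, 5513 were dim for liver, the lower term of the ratio, and 1633 for the line. The part of this choice in their values was not tested. The other 71 member probes split into 37 above and 34 below 0, with a median of 0.013. Rps6kb1 and Akt1 had no dim probe, Mtor had 3, and each of the other 6 genes had 1.

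**Figure D3:**
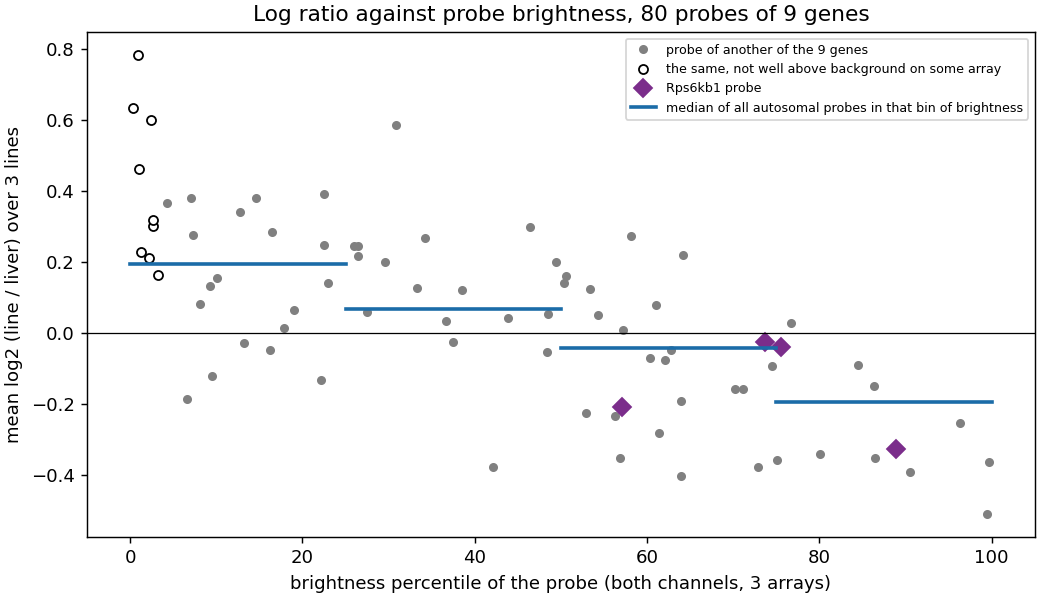
Mean log2 line over liver over 3 lines (vertical axis) against the brightness percentile (horizontal axis) for the 80 probes of the 9 genes. Diamonds are the Rps6kb1 probes, open circles the 9 probes not well above background, and bars the medians of all autosomal probes by bin of brightness, which go from 0.19 down to -0.20.

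Mtor encodes the kinase at the centre of both complexes and lies on chromosome 4, where its 12 probes run from 147826917 to 147930002. The mean of its probes was 0.38, 0.13 and -0.017 in lines 1, 2 and 3, on average 0.17 ± 0.20 (SD, n = 3; limma adjusted p = 0.110). Line 1 was high, while lines 2 and 3, of 1 animal number, lay on either side of 0. Mtor passed above 0 without line 3 (0.26, limma adjusted p = 0.0324), where 13.8% of all genes passed. Its flanking probes stood at 0.086, 0.14 and 0.065, and the difference from them was 0.070 ± 0.20 (SD, n = 3; limma adjusted p = 0.489). Neighbouring probes of the gene went opposite ways: probe 4 read 1.29, 0.58 and 0.48, and probe 5, printed beside it, -0.31, -0.36 and -0.46. Probe 4 was not well above background for liver in line 1. Without the 3 dim probes the Mtor means were 0.21, 0.034 and -0.12, and the difference from the flanking probes became -0.023 (limma adjusted p = 0.796). In windows of 250 kb on each side, which hold the gene's probes at a higher share, the Mtor window of line 1 reached 0.24. It was the only one of the 27 past 0.2 under the settings run. At this size 2.34% of all genes had such a window in some line, beside 0.687% with the windows used above.

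Rptor, the scaffold that brings targets to mTOR, is the best covered member, with 32 probes on chromosome 11 from 119465516 to 119759147. Its means were 0.16, 0.058 and -0.038 in lines 1, 2 and 3, and its flanking probes stood at 0.091, 0.18 and 0.067. The gene lay above its surroundings in line 1 and below them in lines 2 and 3, with a mean difference of -0.052 ± 0.11 (SD, n = 3; limma adjusted p = 0.449). Its mean over lines, 0.061 ± 0.10, did not pass against liver either (limma adjusted p = 0.377). Of its probes, 15 were above 0 and 6 below 0 in all lines, and 11 changed sign between lines. Probe 19 was the highest on average, at 0.73, 0.52 and 0.50 in lines 1, 2 and 3. Probes 30 and 32 near the far end read -0.61 and -0.66 in line 1, -0.40 and -0.15 in line 2 and -0.52 and -0.39 in line 3. Probe 31, between them, read -0.022, 0.049 and -0.43.

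Rictor, the subunit that directs mTOR towards AKT, has 10 probes on chromosome 15 from 6663941 to 6749876, far from the distal part of that chromosome. Its means were 0.0073, 0.079 and 0.0030 in lines 1, 2 and 3, on average 0.030 ± 0.043 (SD, n = 3; limma adjusted p = 0.609). All 3 lay near 0 and below its flanking probes, which stood at 0.073, 0.12 and 0.15. The difference was -0.087 ± 0.056 (SD, n = 3; limma adjusted p = 0.140). Probe 4 read 0.44, 0.88 and 0.58, and it was not well above background for liver on any array. Of the other 5 genes tested in the Rictor window, 2 passed above 0 and 0 below, beside 14.2% and 9.96% of all genes.

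Tsc1 and Tsc2 encode hamartin and tuberin, the subunits that restrain RHEB, and neither differed from liver in limma's test. Tsc1, with 7 probes on chromosome 2 from 28498119 to 28546640, averaged 0.098, -0.012 and -0.18 in lines 1, 2 and 3 (mean -0.031 ± 0.14, SD, n = 3; limma adjusted p = 0.698). Tsc2, with 4 probes on chromosome 17 from 24739593 to 24759591, averaged -0.016, 0.033 and -0.16 (mean -0.048 ± 0.10, SD, n = 3; limma adjusted p = 0.486). Line 3 was the lowest for both genes, as it was for Akt2, Mtor, Rptor and Rictor. Over all 80 member probes the medians were 0.16, 0.050 and -0.066 in lines 1, 2 and 3. For Tsc1 and Tsc2 the other lines lay on both sides of 0. Without the dim probe of each, Tsc1 averaged -0.038, -0.10 and -0.20, and Tsc2 -0.16, -0.040 and -0.23. Both were then below 0 in each line, and neither passed (limma adjusted p = 0.0899 and 0.0530). With all probes, Tsc1 stood at 0.054, -0.10 and -0.16 against its flanking probes, and Tsc2 at -0.033, -0.067 and -0.18. The mean differences were -0.071 for Tsc1 and -0.093 for Tsc2 (limma adjusted p = 0.314 and 0.146).

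Pdpk1 encodes PDK1, and its 6 probes on chromosome 17 from 24212874 to 24270453 gave the gene mean with the smallest SD over lines of the 9 genes. The 6 probes themselves ran from -0.51 to 0.64 in line 1, with 2 above and 3 below 0 in all lines. They averaged -0.014, -0.045 and -0.040 in lines 1, 2 and 3, with a mean of -0.033 ± 0.017 (SD, n = 3; limma adjusted p = 0.554). In the authors' deposited value table its mean was -0.14 and passed (limma adjusted p = 0.0294), the only member to do so there, and it was -0.12 with loess and with normexp (0.0540 and 0.0829). Flanking probes stood at 0.0056, 0.12 and 0.045, so that the difference was -0.020, -0.16 and -0.085 (limma adjusted p = 0.153 for the mean of -0.089). That difference passed below 0 with loess (-0.18, limma adjusted p = 0.0274), with normexp (-0.19, 0.0228) and in the authors' deposited value table (-0.14, 0.0352), the 3 settings under which Rps6kb1 did not pass. Under them 15.1%, 17.5% and 18% of all genes passed in either direction, and 8.77%, 10.1% and 10.8% passed below 0. With normexp the differences of Mtor (-0.16) and Rictor (-0.17) passed as well (limma adjusted p = 0.0315 for both).

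Akt2, the AKT gene known for its part in insulin signalling, has 4 probes on chromosome 7 from 28388786 to 28417726. It averaged 0.18, 0.13 and 0.0026 in lines 1, 2 and 3 (mean 0.10 ± 0.091, SD, n = 3; limma adjusted p = 0.135), and its flanking probes lay at -0.011, 0.023 and -0.023. The gene was above its surroundings in each line, by 0.19, 0.10 and 0.026 (limma adjusted p = 0.113). Probe 3, dim for liver in line 1, read 0.71, 0.29 and -0.10, and without it the means were 0.0033, 0.074 and 0.037. Akt1, the most widely expressed AKT gene, had a single probe on chromosome 12, which read 0.15, 0.13 and 0.32 and stayed out of the main test. Around it 74 flanking probes stood at -0.12, 0.072 and -0.011. With normexp the probe read -0.13, -0.015 and 0.15 (mean 0.0017), and 0.025, -0.11 and 0.20 in the authors' deposited value table (mean 0.039), so that its sign differed between lines under both. With loess it read 0.019, 0.067 and 0.23 (mean 0.10), above 0 in each line. The copy number of Akt1 itself therefore rests on 1 probe. Its flanking probes were above 0 in line 2, near 0 in line 3 and below 0 in line 1. Of the other 4 genes tested in the Akt1 window, 0 passed above and 3 below 0 against liver, beside 14.2% and 9.96% of all genes. When genes with 1 probe were let in, Akt1 did not pass (limma adjusted p = 0.0625 over 21138 genes).

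**Figure D4:**
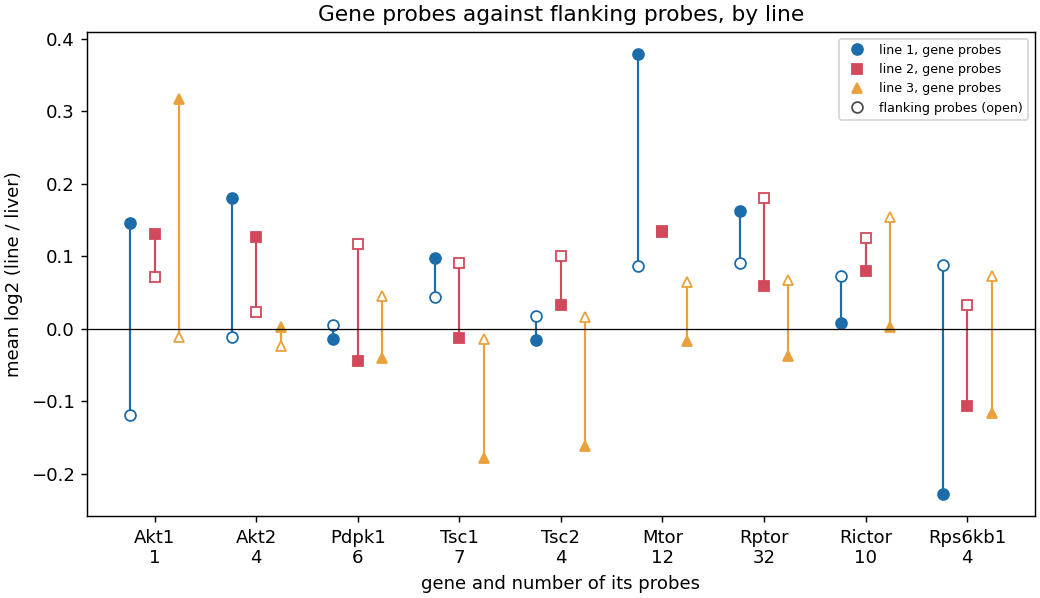
Mean log2 line over liver (vertical axis) of a gene's own probes (filled) and of its flanking probes (open), joined within each line, for the 9 genes with their number of probes (horizontal axis). Rps6kb1 is below its flanking probes in all 3 lines, with differences of -0.14 to -0.32, and Akt1 and Akt2 are above theirs in all 3.

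Across the members, own probes lay below the flanking probes for 4 of 9 genes in line 1 and for 7 of 9 in lines 2 and 3, where Akt1 and Akt2 were the exceptions. Over all genes tested 50.1%, 54.8% and 55.9% lay below in lines 1, 2 and 3. Without line 1, the least precise array, 6 of 8 members passed below 0 against their flanking probes, namely Tsc1, Tsc2, Rptor, Rictor, Pdpk1 and Rps6kb1, beside 23.9% of all genes below 0 and 40.8% in either direction. That fit holds only lines 2 and 3, which share an animal number and a liver label, and the differences of these 6 genes were -0.098 to -0.16. With dim probes left out in all lines, 5 of 8 passed below 0, the same genes without Rptor, beside 15.1% of all genes below 0 and 26.5% in either direction. That setting took out 11.25% of member probes but 3.45% of autosomal ones, and dim probes were mostly above 0. Against liver none of the 8 passed in limma's test without line 1, where 34% of all genes did. The part of the shared liver in these values was not tested.

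Probes repeated from array to array. Over the 80 member probes r was 0.737 for line 1 with line 2, 0.699 for line 1 with line 3 and 0.770 for the pair of one animal number, and over all 161449 autosomal probes 0.699, 0.643 and 0.819. These correlations are across probes, which share their sequence, dye orientation and slide on the 3 arrays. Values had 1 sign in all lines for 51 of the 80 probes, or 63.8%, beside 67.4% of autosomal probes. The SD over member probes was 0.41, 0.23 and 0.25 in lines 1, 2 and 3, and 0.39, 0.25 and 0.27 over all autosomal probes.

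Few of the other pathway genes passed. Of 64 such genes in 5 lists, 51 had a probe by name or synonym and 32 had at least 3 probes, and 2 passed above and 1 below 0 in limma's test over gene means, while 29 did not pass, beside 14.2% above and 9.96% below 0 over all genes. In the list of mTOR complex partners, 1 of 4 tested passed, Tti1, which helps assemble mTOR and related kinases. It averaged -0.16, -0.13 and -0.23 in lines 1, 2 and 3 (limma adjusted p = 0.0209) and differed from its flanking probes by -0.19, -0.22 and -0.27 (limma adjusted p = 0.0124). None of 7 AKT relatives and regulators passed, nor did any of 3 genes around TSC and RHEB, where Rheb averaged 0.12 (limma adjusted p = 0.0689). In the nutrient branch, 2 of 8 passed above 0, beside 14.2% of all genes. Seh1l, a subunit of the complexes that carry the amino acid signal, averaged 0.27, 0.44 and 0.35 over 3 probes (limma adjusted p = 0.00440). Sesn3, a stress-induced inhibitor of mTOR, averaged 0.23, 0.099 and 0.11 over 5 probes (limma adjusted p = 0.0446). Against flanking probes 1 of the 32 passed above 0, Seh1l, and 1 below, Tti1, beside 10.1% and 13.8% of all genes. None of 10 targets passed. The median of the 32 gene means was 0.037, beside 0.011 over all genes.

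Of the 51 list genes with a probe, 1 had a window past 0.2 in some line, beside 0.687% of all genes with at least 3 probes. Prr5, a partner of rictor on distal chromosome 15, had windows at 0.15, 0.27 and 0.21 in lines 1, 2 and 3, and its own 2 probes averaged 0.11, 0.25 and 0.28. Farther along that chromosome than Prr5, the Rhebl1 windows stood at 0.0024, 0.14 and 0.13, and the Eif4b windows at 0.013, 0.14 and 0.12. The Rictor window at the other end of the same chromosome stood at 0.065, 0.12 and 0.14. Telo2, a chaperone partner of Tti1, lies in the Tsc2 window, and its 2 probes averaged 0.078, -0.0027 and -0.23. Line 3 was lowest, as for Tsc2 and several other members.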

How the data were processed

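The authors' spot intensity values came, per the file headers, from Agilent Feature Extraction 10.7.3.1 (build mm9), background-subtracted, detrended and dye-normalised. The authors' deposited value table holds a log10 ratio whose centring is not stated. Here control spots and outlier spots were dropped, spots of a probe averaged (170305 probes), and log2 of Cy5 over Cy3 centred on the autosomal median. The normexp setting used raw mean signals and median backgrounds with an offset of 50. It was centred in the same way, without detrending or dye normalisation. Gene means, and gene minus flanking probes (at least 10, within 500 kb), were each fitted with limma's lmFit and eBayes (version 3.58.1 in R 4.3.3) as 2-sided tests of 0, with p-values adjusted by Benjamini-Hochberg over the 9462 genes of at least 3 probes and a threshold of 0.05. Other steps used Python 3.11.15. The limma script was tested on simulated data. Older array names were matched through a GRCm38.p6 gene table. Text names all 9 members whatever their values, and list genes that passed or lay in a member's window. Rheb, Prr5, Rhebl1 and Eif4b were chosen after their values were seen. Members and lists were chosen with earlier results of these data known.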

Additional observations from a re-analysis of the deposited data

How the results depend on the processing

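Against liver, the count of members past limma's threshold went from 1 to 0 with normexp, loess and gene medians. It was also 0 with genes of at least 1 or at least 5 probes, and with lines 2 and 3 averaged as 1 sample. It rose to 3 after correction for local gene number (Rps6kb1, Pdpk1 and Tsc2), where 24.1% of all genes passed, as in the main test. It was 0 to 1 with 1 line left out (Mtor alone, without line 3), and in the value table the 1 gene called was Pdpk1, not Rps6kb1. Against flanking probes the member count went from 1 to 3 with normexp, 5 without dim probes and 2 with medians. Under these settings 17.5%, 26.5% and 17.4% of all genes passed in either direction. The member count was 0 with at least 5 probes, which drops Rps6kb1, and 1 to 6 with 1 line left out. It was highest without line 1, where 40.8% of all genes passed. Member windows past 0.2 went from 0 to 1 at 250 kb. The share of all genes with such a window in some line went from 0.687% to 2.34%. Gene means changed sign with normexp for Mtor (-0.057), Akt2 (-0.0053), Rps6kb1 (0.025), Rictor (-0.054) and Tsc2 (0.021). Rictor did so with loess (-0.014), without dim probes (-0.037) and with medians (-0.037), Akt2 (-0.045) and Rptor (-0.039) in the value table, and Tsc1 (0.0012) with lines 2 and 3 averaged. With 1 line left out, Tsc1 ran from -0.095 to 0.043 and Tsc2 from -0.089 to 0.0087, both above 0 without line 3. Differences from flanking probes changed sign for Mtor with normexp (-0.16), loess (-0.034), the value table (-0.019), dim probes left out (-0.023), 250 kb (-0.016) and line 1 left out (-0.041 to 0.15 over the lines left out), for Akt2 with normexp (-9.9e-05) and the value table (-0.00074), and for Rptor with medians (0.0033). The cause was not tested. Over all genes, the 2284 calls against liver were 1342 above and 942 below 0, and 852 above and 1101 below in the value table. They were 4765 of 21138 when single probes sufficed, 1494 of 5920 at a minimum of 5, 691 with lines averaged and 1059 to 3219 with 1 line left out. The 2266 calls against flanking probes became 1427 with loess, 4671 with at least 1 probe and 975 to 3858 with 1 line left out. The correction for probe GC, chosen after seeing the data, moved no member count. No paired analysis was possible because the 3 lines form a single group. The smallest change that 3 arrays can detect was not measured.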
